A study of Mus with 96 samples.

Results

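Expression of 10 genes that mark the ends of the liver lobule was followed in 96 mouse livers. The set held 5 pericentral genes (Glul, Oat, Slc1a2, Rhbg and Cyp2e1) and 5 periportal genes (Cyp2f2, Hal, Sds, Gls2 and Pigr), which were taken by gene name from a count table of 55487 genes. All 10 passed the filter of at least 100 counts over the 96 libraries, as did 15548 genes in all, and no member was at 0 in any library. In mice fed for 2 weeks with a high-fat diet that lacks choline (cdHFD), all 5 periportal genes and 4 of the 5 pericentral genes were lower than on normal chow (NC) in both genotypes, and the median fall was larger for the periportal genes. The zones were not tested against each other, and their genes overlapped, as pericentral Slc1a2 fell at least as far as periportal Pigr. Of the genes lower on cdHFD, Glul turned to higher in Hep-Bmal1WT when libraries were scaled to hepatocyte markers. Loss of Bmal1 in hepatocytes was accompanied on both diets by lower Slc1a2 and Rhbg, on NC by higher Oat and Pigr, and on cdHFD by lower Glul and Cyp2f2. When the difference of the genotype effect between diets was tested, Cyp2f2 alone was called, and Oat and Pigr as well with sex as a covariate. On NC the calls other than that of Oat were each lost under some alternatives.

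Hepatocytes along the lobule divide their labour: blood enters at the portal vein and leaves at the central vein, and the cells at each end carry different enzymes. Periportal hepatocytes are known for amino acid breakdown, glucose production and urea synthesis, whereas the pericentral cells take up the ammonia that is left, fix it into glutamine and carry many of the cytochrome P450 enzymes. The pericentral programme is maintained by Wnt and R-spondin signals from endothelial cells of the central vein.

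Livers came from Hep-Bmal1KO mice, in which an albumin-driven Cre (Alb-Cre) removes floxed Bmal1 in hepatocytes, and from littermate controls without Cre, Hep-Bmal1WT. Both genotypes carried the Bmal1 flx/flx alleles on a C57BL/6J background, so the groups differ in the Cre transgene as well as in the deletion, and cells other than hepatocytes should keep Bmal1. Mice were 8 to 10 weeks old, lived under 12 h of light and 12 h of dark, and received NC or cdHFD, a model of metabolic dysfunction-associated steatohepatitis (MASH), for 2 weeks. Each combination of genotype and diet held 24 livers, 4 at each of ZT2, ZT6, ZT10, ZT14, ZT18 and ZT22 (hours after lights on), with 2 males and 2 females at each time except 3 males and 1 female in Hep-Bmal1WT on cdHFD at ZT14. Each library was 1 mouse.

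Libraries held from 1861740 to 9718615 counts on genes, with a median of 6412078. Levels are given as counts scaled to library size (CPM), scaled by the trimmed mean of M-values (TMM). The reads lie at the 3′ ends of transcripts, which need not include the deleted part of Bmal1 (Arntl), so Arntl counts do not check the deletion. Median Arntl was 7.21 CPM in Hep-Bmal1WT and 7.55 CPM in Hep-Bmal1KO on NC, whereas its 24-h rhythm was called in Hep-Bmal1WT (amplitude 1.97 on the log2 scale, edgeR adjusted p = 1.62e-06) and not in Hep-Bmal1KO (amplitude 0.37, adjusted p = 0.414). On cdHFD its rhythm was called in both, with amplitudes of 1.96 (adjusted p = 1.67e-07) and 0.78 (adjusted p = 0.000937). The rhythm of Arntl differed between genotypes on NC (adjusted p = 0.00935) and on cdHFD (adjusted p = 0.0158). Of 10 clock genes, 10 were rhythmic in Hep-Bmal1WT on each diet, and 4 on NC and 8 on cdHFD in Hep-Bmal1KO. In 8 of the 96 libraries, 4 on each diet, both the clock genes and the other genes that differ by genotype lay nearer the other genotype label. The levels of the members by genotype, and their test of genotype by diet, are therefore given with and without these 8. As the 8 were picked by genes that differ with genotype, leaving them out can enlarge genotype effects and is no independent check. Results for clock genes and further gene lists, and the tests of rhythm between genotypes, are given with all libraries only. On the plate, each genotype and diet had its own columns of wells, so plate column cannot be told apart from genotype or diet. Within a genotype and diet, the livers of each time of day stood together in a column that they shared with a neighbouring time. Well position can therefore not be told apart from time of day in the rhythms either.

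The members were identified by Ensembl gene, and positions are those of the RefSeq annotation of GRCm38.p6, matched by symbol. All 10 are protein-coding genes. Of the pericentral genes, Glul (ENSMUSG00000026473) encodes glutamine synthetase and lies at chr1:153899929-153909723. Oat (ENSMUSG00000030934), for ornithine aminotransferase, lies at chr7:132557475-132576398. Slc1a2 (ENSMUSG00000005089), for a glutamate transporter, lies at chr2:102658239-102790784, and Rhbg (ENSMUSG00000104445), for an ammonia transporter of the Rh family, at chr3:88242874-88254739. Cyp2e1 (ENSMUSG00000025479), for a cytochrome P450 that oxidises ethanol and other small molecules, lies at chr7:140763819-140774990. Of the periportal genes, Cyp2f2 (ENSMUSG00000052974), for a cytochrome P450 that acts on naphthalene, lies at chr7:27119955-27133660. Hal (ENSMUSG00000020017) encodes histidine ammonia-lyase, the first enzyme of histidine breakdown, at chr10:93488768-93516761. Sds (ENSMUSG00000029597) encodes serine dehydratase, which turns serine into pyruvate, at chr5:120476547-120483932. Gls2 (ENSMUSG00000044005) encodes the liver glutaminase, which frees ammonia from glutamine, at chr10:128194635-128210004. Pigr (ENSMUSG00000026417), for the polymeric immunoglobulin receptor that carries IgA across epithelial cells, lies at chr1:130826684-130852249. Counts were lowest for Rhbg, with 6 to 127 counts per library, so its values are less precise than those of the other members.

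The first question was how the diet moved the 2 ends of the lobule. In Hep-Bmal1WT, Cyp2f2 ranged from 508 to 1709 CPM on NC with a median of 886, and from 80.7 to 268 CPM on cdHFD with a median of 199. In Hep-Bmal1KO the same gene ranged from 697 to 1524 CPM on NC (median 967) and from 23.4 to 252 CPM on cdHFD (median 103). No cdHFD liver reached the lowest NC liver, in either genotype. On NC the mean was 5.18 times that on cdHFD in Hep-Bmal1WT and 9.18 times in Hep-Bmal1KO, and the fitted log2 fold changes were -2.36 (SE 0.108) and -3.27 (SE 0.132).

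Hal and Gls2, the enzymes that release ammonia from histidine and glutamine, separated the diets as completely. Hal lay between 139 and 439 CPM (median 218) on NC and between 24.6 and 97.97 CPM (median 47.2) on cdHFD in Hep-Bmal1WT, and between 131 and 352 CPM (median 219) and 19.4 and 81.5 CPM (median 45.8) in Hep-Bmal1KO. Gls2 lay between 271 and 532 CPM (median 331) on NC and between 56.5 and 135 CPM (median 98.4) on cdHFD in Hep-Bmal1WT, and between 217 and 623 CPM (median 358) and 56.4 and 128 CPM (median 95.1) in Hep-Bmal1KO. The ranges of the diets did not overlap for either gene over all 96 livers. How many of all genes tested separate the diets in this way was not counted, here or for the other members. The log2 fold changes were -2.18 (SE 0.129) and -2.34 (SE 0.116) for Hal and -1.85 (SE 0.0850) and -2.01 (SE 0.0887) for Gls2, in Hep-Bmal1WT and Hep-Bmal1KO in that order.

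Sds and Pigr were lower on cdHFD as well. Sds had a median of 111 CPM (56.2 to 173) on NC and 36.7 CPM (21.5 to 61.3) on cdHFD in Hep-Bmal1WT, where 23 of 24 cdHFD livers were below every NC liver. In Hep-Bmal1KO its median was 84.9 CPM (50.4 to 230) on NC and 34.01 CPM (16.4 to 125) on cdHFD, and 18 of 24 were below every NC liver. Pigr had a median of 576 CPM (338 to 828) on NC and 223 CPM (165 to 379) on cdHFD in Hep-Bmal1WT, and of 634 CPM (425 to 935) and 213 CPM (108 to 336) in Hep-Bmal1KO. For Pigr 23 of 24 cdHFD livers in Hep-Bmal1WT and all 24 in Hep-Bmal1KO were below every NC liver of their genotype. Log2 fold changes were -1.56 (SE 0.116) and -1.24 (SE 0.145) for Sds, and -1.24 (SE 0.0869) and -1.58 (SE 0.0966) for Pigr.

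**Figure D1:**
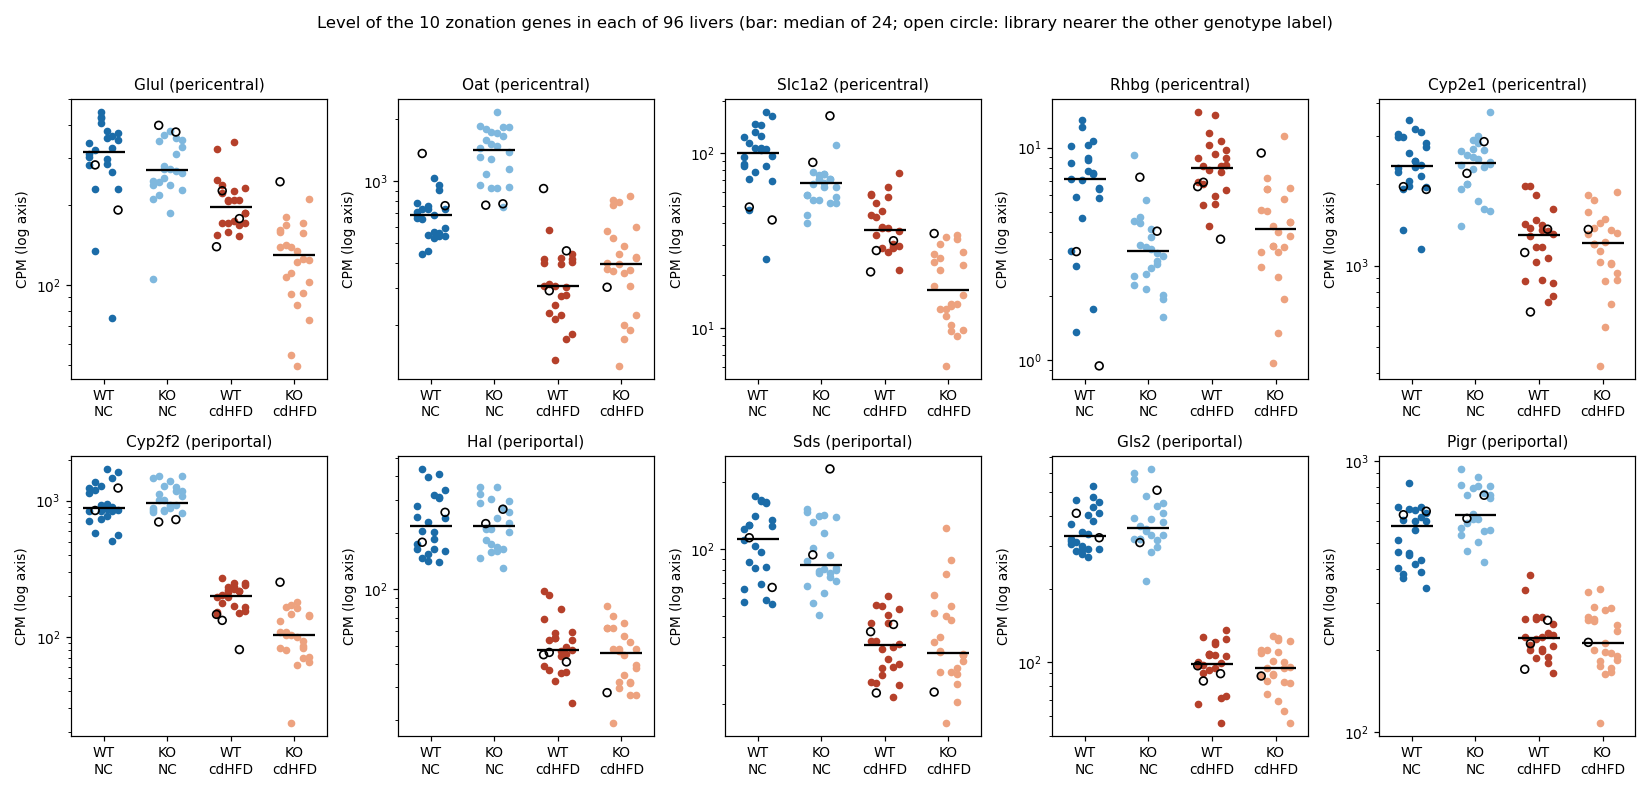
Level of each member in each of the 96 livers, in CPM on a log axis, for Hep-Bmal1WT (WT) and Hep-Bmal1KO (KO) on NC and cdHFD. Points are livers, bars are the median of 24, and open circles are the 8 libraries nearer the other genotype label. Cyp2f2, Hal and Gls2 show a gap between diets, whereas Rhbg overlaps throughout.

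Among the pericentral genes, Glul, Oat, Slc1a2 and Cyp2e1 were lower on cdHFD in both genotypes, with overlapping ranges in all but 1 case. Cyp2e1 had a median of 2326 CPM (1148 to 3436) on NC and 1295 CPM (674 to 1968) on cdHFD in Hep-Bmal1WT, and of 2391 CPM (1405 to 3695) and 1212 CPM (426 to 1865) in Hep-Bmal1KO. Oat had a median of 683 CPM (443 to 1364) on NC and 308 CPM (135 to 921) on cdHFD in Hep-Bmal1WT, and of 1424 CPM (749 to 2176) and 396 CPM (126 to 843) in Hep-Bmal1KO. In each genotype 20 of 24 cdHFD livers had less Oat than every NC liver. For Cyp2e1 these numbers were 9 of 24 in Hep-Bmal1WT and 18 of 24 in Hep-Bmal1KO.

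Slc1a2 and Glul, which bring in glutamate and turn it into glutamine, were lower on cdHFD in both genotypes. Slc1a2 had a median of 100 CPM (24.7 to 173) on NC and 36.6 CPM (20.9 to 77.5) on cdHFD in Hep-Bmal1WT. In Hep-Bmal1KO its median was 67.2 CPM (39.8 to 164) on NC and 16.4 CPM (6.06 to 34.7) on cdHFD, with no overlap of the diets. Glul had a median of 318 CPM (75.1 to 449) on NC and 197 CPM (140 to 346) on cdHFD in Hep-Bmal1WT, and of 272 CPM (105 to 400) and 130 CPM (49.7 to 245) in Hep-Bmal1KO. The mean of Glul was lower on cdHFD at 5 of the 6 ZTs in Hep-Bmal1WT and at 6 of 6 in Hep-Bmal1KO. The log2 fold changes in Hep-Bmal1WT and Hep-Bmal1KO were -0.57 (SE 0.118) and -1.09 (SE 0.134) for Glul, -1.25 (SE 0.134) and -1.83 (SE 0.162) for Slc1a2, -1.02 (SE 0.143) and -1.68 (SE 0.160) for Oat, and -0.95 (SE 0.0946) and -0.97 (SE 0.112) for Cyp2e1.

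Rhbg was the exception. Its median was 7.08 CPM (0.943 to 13.5) on NC and 8.02 CPM (3.71 to 14.7) on cdHFD in Hep-Bmal1WT, and 3.28 CPM (1.602 to 9.28) and 4.16 CPM (0.978 to 11.4) in Hep-Bmal1KO. The log2 fold changes of 0.35 (SE 0.184, edgeR adjusted p = 0.107) and 0.33 (SE 0.186, adjusted p = 0.125) did not pass the threshold, although both did without replicate 3 (0.53 and 0.48, adjusted p = 0.0259 and 0.0375), and the ranges of the diets overlapped in both genotypes.

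By edgeR's quasi-likelihood test, 9 of the 10 members were called lower on cdHFD at an adjusted p under 0.05 in each genotype, 4 of 5 pericentral and 5 of 5 periportal. Over all genes tested, 27% were called lower and 28.7% higher in Hep-Bmal1WT (55.7% in all), and 29.6% lower and 32.4% higher in Hep-Bmal1KO (61.9% in all). The median log2 fold change was -0.95 for the pericentral and -1.85 for the periportal members in Hep-Bmal1WT, and -1.09 and -2.01 in Hep-Bmal1KO, beside medians of 0.01 and 0.02 over all genes tested. The zones overlapped, with Slc1a2 at -1.25 and -1.83 against Pigr at -1.24 and -1.58, and were not tested against each other. The same 9 were called without the 8 libraries nearer the other label, where the medians were -0.89 and -1.81 in Hep-Bmal1WT and -1.09 and -2.003 in Hep-Bmal1KO.

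**Figure D2:**
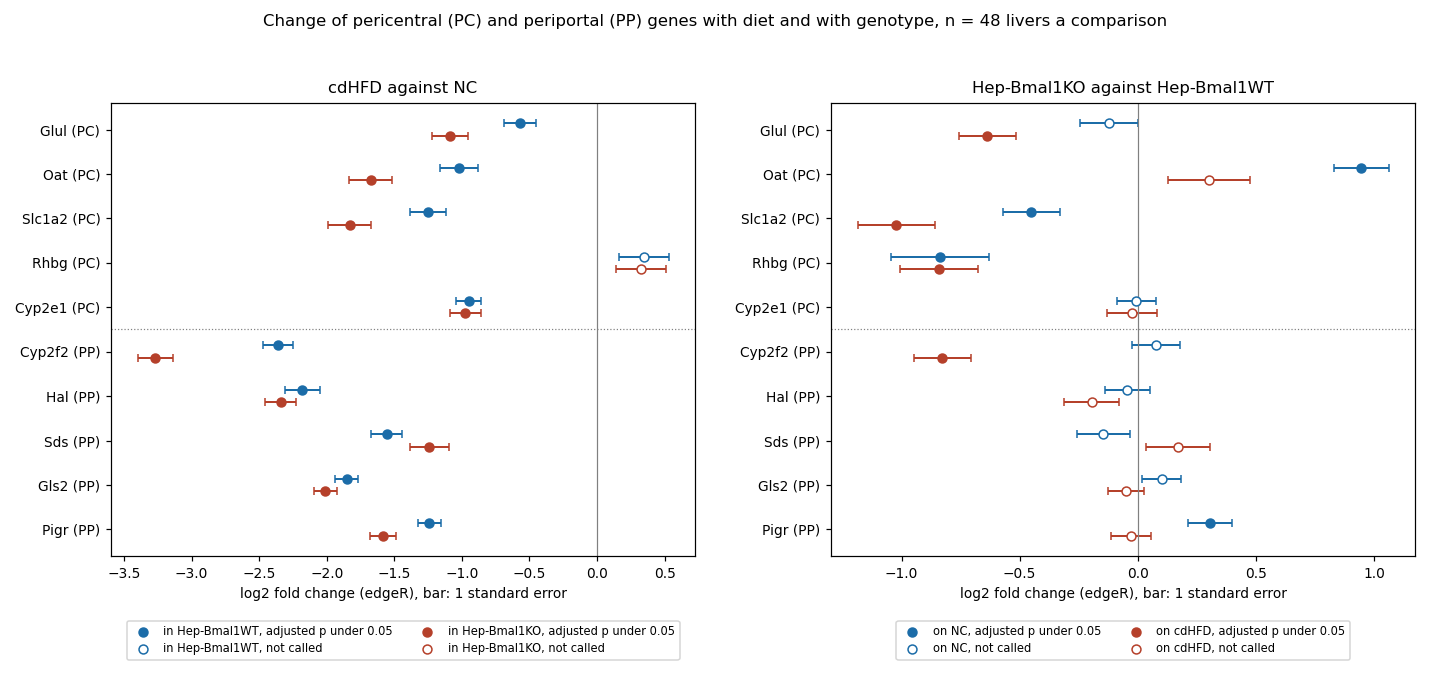
Log2 fold change of each member with cdHFD against NC within each genotype (left) and in Hep-Bmal1KO against Hep-Bmal1WT within each diet (right). Bars are 1 SE, each fit held 48 livers, and filled symbols passed an adjusted p of 0.05 in edgeR. With diet all periportal points (PP) lie left of -1, whereas the pericentral points (PC) run from -1.83 to 0.35.

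Markers of other cell types moved with the diet in the same livers. Summed over 7 immune markers, the median went from 471 CPM (256 to 666) on NC to 2236 CPM (1199 to 3787) on cdHFD in Hep-Bmal1WT, and from 457 CPM (216 to 713) to 2480 CPM (1693 to 3131) in Hep-Bmal1KO, with 7 of 7 called higher in both. For 6 stellate cell markers the medians were 251 CPM (170 to 347) and 658 CPM (493 to 1068) in Hep-Bmal1WT, and 250 CPM (153 to 366) and 814 CPM (489 to 1642) in Hep-Bmal1KO, with 6 of 6 higher. All 8 hepatocyte markers measured were called lower in both genotypes, with median log2 fold changes of -0.88 and -0.98. Beyond the change of scaling given next, their part in the member changes was not tested, and in whole liver fewer cells of a type and less RNA per cell cannot be told apart.

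Scaling bore on both zones. Scaled to the geometric mean of the hepatocyte markers in place of TMM, which raised the median log2 change of all genes to 0.87 in Hep-Bmal1WT and 0.96 in Hep-Bmal1KO, the medians of the members became -0.09 (pericentral) and -0.997 (periportal) in Hep-Bmal1WT and -0.16 and -1.08 in Hep-Bmal1KO. On that scale all 5 periportal genes were still called lower in Hep-Bmal1WT and 4 of 5 in Hep-Bmal1KO, where Sds changed by -0.28 and was not called. Of the pericentral genes, Slc1a2 alone was called lower in Hep-Bmal1WT, where Glul reversed to 0.28 (adjusted p = 0.0307), and Oat and Slc1a2 were called lower in Hep-Bmal1KO. Rhbg was called higher on that scale in both genotypes, by 1.22 and 1.26. Scaled to total counts, which moved the median of all genes to 0.50 in both, Rhbg was again called higher (0.84 and 0.81), and Glul in Hep-Bmal1WT was at -0.08 and not called.

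Because the scaling of a library cancels in a ratio within it, the difference between the mean log2 CPM of the 5 pericentral and of the 5 periportal genes was also taken in each liver. Levels of different genes are not set against each other here, so its sign and zero are not read, and only its shifts between groups are described, with no test. In Hep-Bmal1WT it ran from -2.47 to -0.13 on NC (median -0.59) and from 0.06 to 1.19 on cdHFD (median 0.32), so that all 24 cdHFD livers lay above all 24 NC livers. In Hep-Bmal1KO it ran from -1.86 to -0.45 on NC (median -0.92) and from -0.98 to 1.099 on cdHFD (median 0.01), with 20 of 24 above every NC liver. The medians thus lay 0.91 and 0.93 higher on cdHFD, as the periportal mean was lower than every NC value in all 24 cdHFD livers of each genotype, whereas the pericentral mean was so in 0 of 24 and 18 of 24. Each gene weighs equally in these means. Rhbg, of low counts and not lower on cdHFD (0.35 and 0.33), and Cyp2f2, with the largest fall (-2.36 and -3.27), therefore both widen the shift. The difference was not taken without them. The SD of the difference on cdHFD was 0.24 in Hep-Bmal1WT and 0.55 in Hep-Bmal1KO. Without the 8 libraries nearer the other label, all 21 remaining Hep-Bmal1WT livers and 19 of 23 Hep-Bmal1KO livers on cdHFD lay above every NC liver of their genotype.

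**Figure D3:**
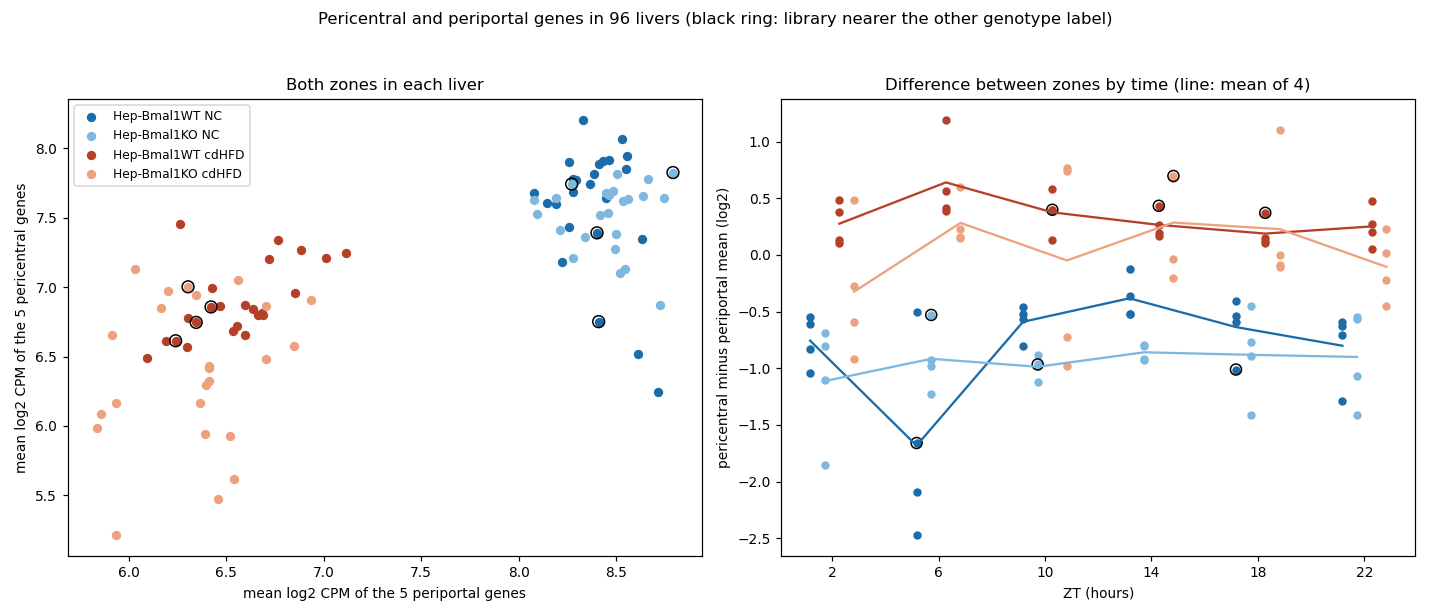
Left, mean log2 CPM of the 5 pericentral genes against that of the 5 periportal genes in each of 96 livers. Right, the difference between both means by ZT, with lines through the means of 4 livers. The diets part along the periportal axis, with cdHFD livers at 5.84 to 7.11 and NC livers at 8.08 to 8.79. Livers of Hep-Bmal1WT on NC at ZT6 and of Hep-Bmal1KO on cdHFD at ZT10 are spread widely.

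At 2 times, livers of 1 group differed strongly in their pericentral genes. In Hep-Bmal1WT on NC at ZT6, Cyp2e1 was 1148, 1910 and 1357 CPM in replicates 1, 2 and 4 and 3062 CPM in replicate 3. Glul in the same livers was 75.1, 192 and 135 CPM against 342 CPM, and Rhbg was 1.75, 0.943 and 1.36 CPM against 7.09 CPM. Replicates 1 and 4 had high periportal Hal (411 and 439 CPM), Gls2 (532 and 464 CPM) and Sds (163 and 128 CPM) among these 4. Periportal Pigr went the other way, at 432 and 604 CPM in replicates 1 and 4 against 652 and 674 CPM in replicates 2 and 3. Replicate 2 was 1 of the 8 libraries nearer the other label. In Hep-Bmal1KO on cdHFD at ZT10, the 2 males had 54.6 and 49.7 CPM of Glul and 426 and 595 CPM of Cyp2e1, whereas the 2 females had 171 and 212 CPM of Glul and 1356 and 1865 CPM of Cyp2e1. Those males had more Sds than the females (125 and 89.1 CPM against 24.6 and 33.3 CPM). The periportal genes did not move together, as the males had less Pigr (108 and 164 CPM against 172 and 236 CPM). Hal was mixed, at 29.7 and 44.7 CPM in the males against 31.5 and 39.4 CPM in the females. The libraries of both these groups held between 5990901 and 9095237 counts. Both times were left out in turn after these values had been seen, and the results are given beside the comparisons they touch.

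The next question was which of these genes differed with hepatocyte Bmal1 on NC. Oat was higher in Hep-Bmal1KO: its mean was 705 ± 205 CPM (SD, n = 24) in Hep-Bmal1WT and 1371 ± 414 CPM (SD, n = 24) in Hep-Bmal1KO, higher at 6 of 6 ZTs, and 13 of 24 Hep-Bmal1KO livers exceeded every Hep-Bmal1WT liver. The log2 fold change was 0.95 (SE 0.115, edgeR adjusted p = 1.13e-07). Pigr rose modestly, from 543 ± 129 CPM to 670 ± 136 CPM, by 0.30 on the log2 scale (SE 0.0926, adjusted p = 0.0214), and was higher at 6 of 6 ZTs.

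The transporters moved the other way. Slc1a2 was 99.2 ± 38.3 CPM (SD, n = 24) in Hep-Bmal1WT and 70.1 ± 25.1 CPM in Hep-Bmal1KO, a log2 fold change of -0.45 (SE 0.121, adjusted p = 0.00857). Rhbg was 6.79 ± 3.41 CPM in Hep-Bmal1WT and 3.67 ± 1.75 CPM in Hep-Bmal1KO, a log2 fold change of -0.84 (SE 0.208, adjusted p = 0.00408). Both were lower at 5 of 6 ZTs, and their ranges overlapped between genotypes. Glul (-0.12, adjusted p = 0.621), Cyp2e1 (-0.01, adjusted p = 0.979), Cyp2f2 (0.08, adjusted p = 0.722), Hal (-0.04, adjusted p = 0.837), Sds (-0.15, adjusted p = 0.482) and Gls2 (0.10, adjusted p = 0.521) did not pass.

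Thus 4 of 10 members were called on NC, 3 pericentral and 1 periportal, where 12.6% of all genes were called (7% higher and 5.61% lower). Without the 8 libraries nearer the other label the same 4 passed, with log2 fold changes of 1.08 for Oat, -0.60 for Slc1a2, -1.04 for Rhbg and 0.34 for Pigr. Without ZT6 they passed as well (0.90, -0.61, -1.11 and 0.31). Oat passed under each alternative tried, whereas Pigr lost its call without replicate 1, 2 or 4 (adjusted p 0.0579 to 0.0871) and without ZT10 (adjusted p = 0.0797), Slc1a2 without replicate 2 or 3 (0.0893 and 0.145) and Rhbg without replicate 3 (0.142). Slc1a2 was not called in females alone (adjusted p = 0.0816) nor Rhbg in males alone (0.133).

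On cdHFD the genotype was tested again among 48 livers. Slc1a2 was 39.9 ± 14.6 CPM (SD, n = 24) in Hep-Bmal1WT and 19.5 ± 9.15 CPM in Hep-Bmal1KO, by -1.02 on the log2 scale (SE 0.163, edgeR adjusted p = 2.15e-05). Rhbg was 8.20 ± 2.76 CPM and 4.61 ± 2.43 CPM (-0.84, SE 0.164, adjusted p = 0.000339), and Glul was 205 ± 50.3 CPM and 131 ± 46.7 CPM (-0.64, SE 0.122, adjusted p = 0.000262). All 3 were lower in Hep-Bmal1KO at 6 of 6 ZTs. For Glul 15 of 24, for Slc1a2 13 of 24 and for Rhbg 10 of 24 Hep-Bmal1KO livers were below every Hep-Bmal1WT liver.

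Of the periportal genes, Cyp2f2 alone was called on cdHFD, at 193 ± 45.5 CPM (SD, n = 24) in Hep-Bmal1WT and 114 ± 49.6 CPM in Hep-Bmal1KO (-0.83, SE 0.119, adjusted p = 3.78e-06), lower at 6 of 6 ZTs. The remaining members were Oat at 0.30 (adjusted p = 0.313), Cyp2e1 at -0.02 (0.938), Hal at -0.20 (0.335), Sds at 0.17 (0.520), Gls2 at -0.05 (0.778) and Pigr at -0.03 (0.897). So 4 of 10 members were called where 9.61% of all genes were, all 4 lower, the direction of 4.99% of all genes, while 4.62% were higher. The same 4 passed without the 8 libraries nearer the other label, with -0.70 for Glul, -1.14 for Slc1a2, -0.97 for Rhbg and -0.94 for Cyp2f2, and without ZT10, with -0.61, -0.93, -0.91 and -0.70. Rhbg lost its call in males alone (-0.78, adjusted p = 0.0514), and this was the single call lost among the alternatives.

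Bile duct and stellate markers differed between genotypes in these livers. Over all genes tested, 4.62% were called higher and 4.99% lower in Hep-Bmal1KO on cdHFD, and 7% higher and 5.61% lower on NC. On cdHFD, 4 of 6 measured cholangiocyte markers were higher in Hep-Bmal1KO (Spp1 by 1.22, Epcam by 1.15, Tspan8 by 1.16 and Sox9 by 0.68 on the log2 scale), with summed levels of 106 CPM (54.2 to 219) in Hep-Bmal1WT and 232 CPM (71.6 to 763) in Hep-Bmal1KO. On NC, 2 of 6 were higher (Sox9 by 1.06 and Spp1 by 0.68), with summed levels of 51.7 CPM (33.2 to 146) and 91.6 CPM (62.4 to 145). Of 6 stellate markers 4 were higher in Hep-Bmal1KO on cdHFD, with a median of 0.39 over the list. Their part in the member differences was not tested. Scaled to the hepatocyte markers, Slc1a2, Rhbg, Glul and Cyp2f2 were still called lower on cdHFD. Those markers themselves differed with genotype in both directions. On NC 2 of 8 were higher in Hep-Bmal1KO (Apoh by 0.36 and F2 by 0.22) and 3 lower (Alb, whose promoter drives the Cre, by -0.83, Rbp4 by -0.20 and Ambp by -0.16), with a median of 0.09, and on cdHFD 0 were higher and 3 lower, with a median of -0.05.

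Whether the genotype effect differed between diets was tested as an interaction over all 96 livers. Cyp2f2 alone of the members was called, with a difference of -0.91 on the log2 scale between the genotype effect on cdHFD and that on NC (SE 0.162, edgeR adjusted p = 0.000127), where 3.04% of all genes were called (2% lower and 1.04% higher). Without the 8 libraries nearer the other label the estimate was -1.055 (adjusted p = 1.01e-06), and without ZT10 it was -0.73 (adjusted p = 0.00593). It stayed called in males alone (-0.85) and in females alone (-0.99). The estimates for Oat (-0.65, adjusted p = 0.0841), Glul (-0.52, 0.0947) and Slc1a2 (-0.57, 0.124) did not pass, nor did Pigr (-0.33, 0.147). With sex as a covariate Oat (-0.67, adjusted p = 0.0473) and Pigr (-0.38, adjusted p = 0.00251) were also called, and in males alone Pigr was (-0.53, adjusted p = 0.00768). Without sex in the fit 0 of 5 pericentral members were called by edgeR and 0 of 5 by DESeq2, with 3 at an unadjusted p under 0.05.

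Sex was a further axis along which members of both zones differed, with the calls on NC among the periportal genes. On NC, Cyp2f2 ran from 820 to 1709 CPM (median 1233) in 24 males and from 508 to 1074 CPM (median 847) in 24 females, and the females were lower by -0.58 on the log2 scale (SE 0.0565, edgeR adjusted p = 8.43e-12). Pigr had the opposite direction, with a median of 484 CPM (338 to 751) in males and 674 CPM (511 to 935) in females, higher in females by 0.49 (adjusted p = 7.15e-09). Hal (0.32, adjusted p = 0.00333) and Gls2 (0.22, adjusted p = 0.0402) were also higher in females. These made 4 of 10 members, where 18.3% of all genes were called (9.78% higher and 8.47% lower in females), and 0 of 5 pericentral genes were among them by edgeR or DESeq2 (1 had an unadjusted p under 0.05). The estimates of the 5 pericentral genes were all higher in females as well, from 0.10 to 0.34. Scaled to the hepatocyte markers, which put the median of all genes at -0.14, Hal (0.16) and Gls2 (0.06) were no longer called. Hal also lost its call without replicate 2 (adjusted p = 0.0878), and Gls2 without replicate 2, 3 or 4 (0.116 to 0.476) and without ZT10 (0.207).

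On cdHFD, Pigr was again higher in females, at 258 CPM (172 to 379) in 23 females and 196 CPM (108 to 265) in 25 males by median (0.44, adjusted p = 3.01e-07). Hal was higher in females by 0.50 (adjusted p = 0.000179) and Slc1a2 by 0.55 (adjusted p = 0.0123), the latter not without ZT6 (0.40, adjusted p = 0.171) or without replicate 2, 3 or 4 (0.0892 to 0.23). Without the libraries nearer the other label, Glul (0.41, adjusted p = 0.00896) and Oat (0.52, adjusted p = 0.0329) were called higher in females as well. Cyp2f2 had medians of 165 CPM (23.4 to 268) in males and 132 CPM (70.1 to 239) in females (-0.18, adjusted p = 0.452). Here 3 of 10 members and 5.8% of all genes were called (3.28% higher and 2.52% lower in females). Whether the sex effect differed between diets was not tested. On NC all 7 immune markers were higher in females (median 0.47 on the log2 scale), and their part in the differences of Pigr and Hal was not tested.

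**Figure D4:**
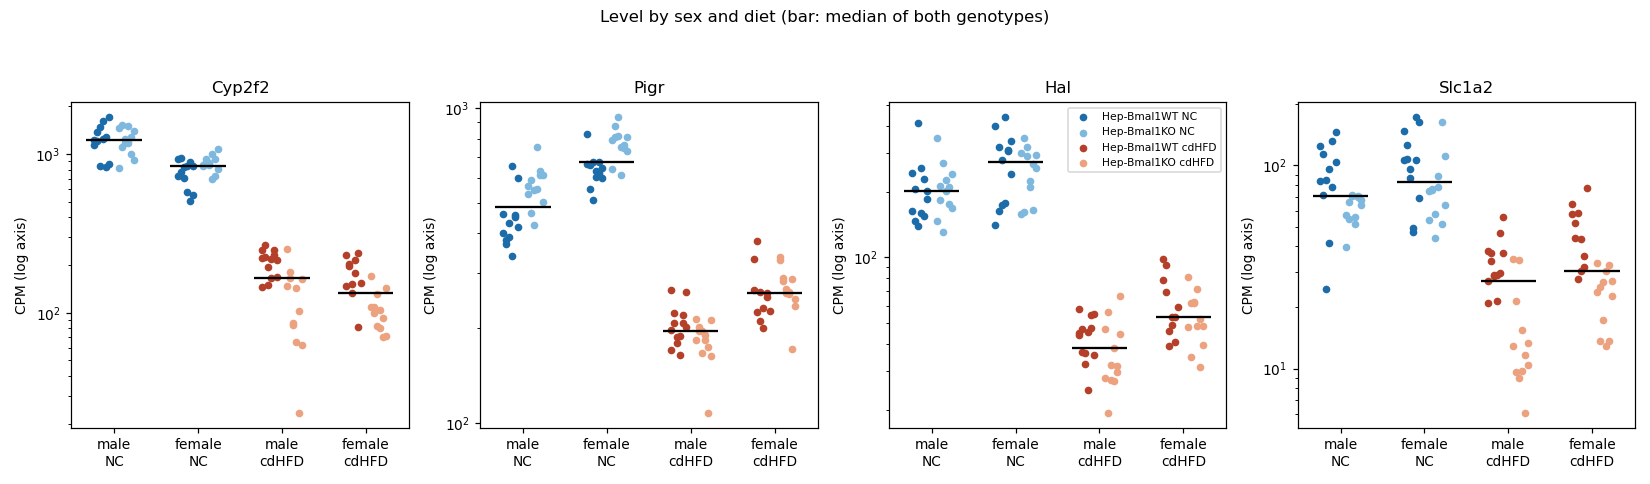
Cyp2f2, Pigr, Hal and Slc1a2 in males and females on each diet, in CPM on log axes. Points are livers coloured by genotype and bars are the median over both genotypes. On NC Cyp2f2 is lower in females (847 against 1233 CPM by median), whereas Pigr is higher in females on both diets.

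Time of day was examined with a cosine and a sine term of 24 h within each group of 24 livers. Amplitudes and p-values are those of edgeR unless another tool is named. Fitted peaks come from a separate cosinor, a cosine fitted to transformed values. In Hep-Bmal1WT on NC, Hal, Sds and Cyp2e1 were called rhythmic (3 of 10 members, beside 19.1% of all genes). Hal had means of 292, 347, 245, 153, 163 and 248 CPM from ZT2 to ZT22, with an amplitude of 0.59 on the log2 scale (edgeR adjusted p = 0.000317) and a fitted peak at ZT 4.29 ± 0.69 h (SE). Sds had means of 88.4, 104, 159, 136, 87.7 and 90.3 CPM and an amplitude of 0.44 (adjusted p = 0.0188), with a peak at ZT 11.1 ± 1.16 h. Hal kept its call under each alternative tried, whereas Sds lost it without replicate 1 or 2 (adjusted p = 0.108 and 0.0761) and without ZT10 (0.312). Sds also lost it in females alone and by the cosinor. Hal was thus highest in the first part of the light phase, and Sds near lights off.

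Cyp2e1 changed its daily profile with diet in Hep-Bmal1WT. On NC its means were 2124, 1869, 2747, 3146, 2312 and 2144 CPM from ZT2 to ZT22, with a fitted amplitude of 0.30 (adjusted p = 0.0314) and a peak at ZT 14.2 ± 1.11 h. On cdHFD the means were 1688, 1340, 1554, 1175, 870 and 891 CPM, with an amplitude of 0.45 (adjusted p = 0.00128) and a peak at ZT 6.78 ± 0.75 h. The highest mean was thus in the early night on NC and in the light phase on cdHFD. The test of the difference in rhythm between diets passed for Cyp2e1 (0.61 on the log2 scale, edgeR adjusted p = 0.00314), the only member called by edgeR, where 6.19% of all genes were, and DESeq2 also called Hal (0.56, adjusted p = 0.0324). It also passed without ZT6 (0.64, adjusted p = 0.00156) and without the libraries nearer the other label (0.60, adjusted p = 0.00989), and not without replicate 2 (0.57, adjusted p = 0.0562) or in females alone (0.67, adjusted p = 0.124). The rhythms of 10 of 10 clock genes also differed between diets in Hep-Bmal1WT, and their part in the profile of Cyp2e1 was not tested. The rhythm of Cyp2e1 on NC by itself was less firm: it lost its call without any 1 of the 4 replicates (adjusted p 0.0838 to 0.107) and without ZT10 (0.133). It also lost it in females alone and by the cosinor.

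**Figure D5:**
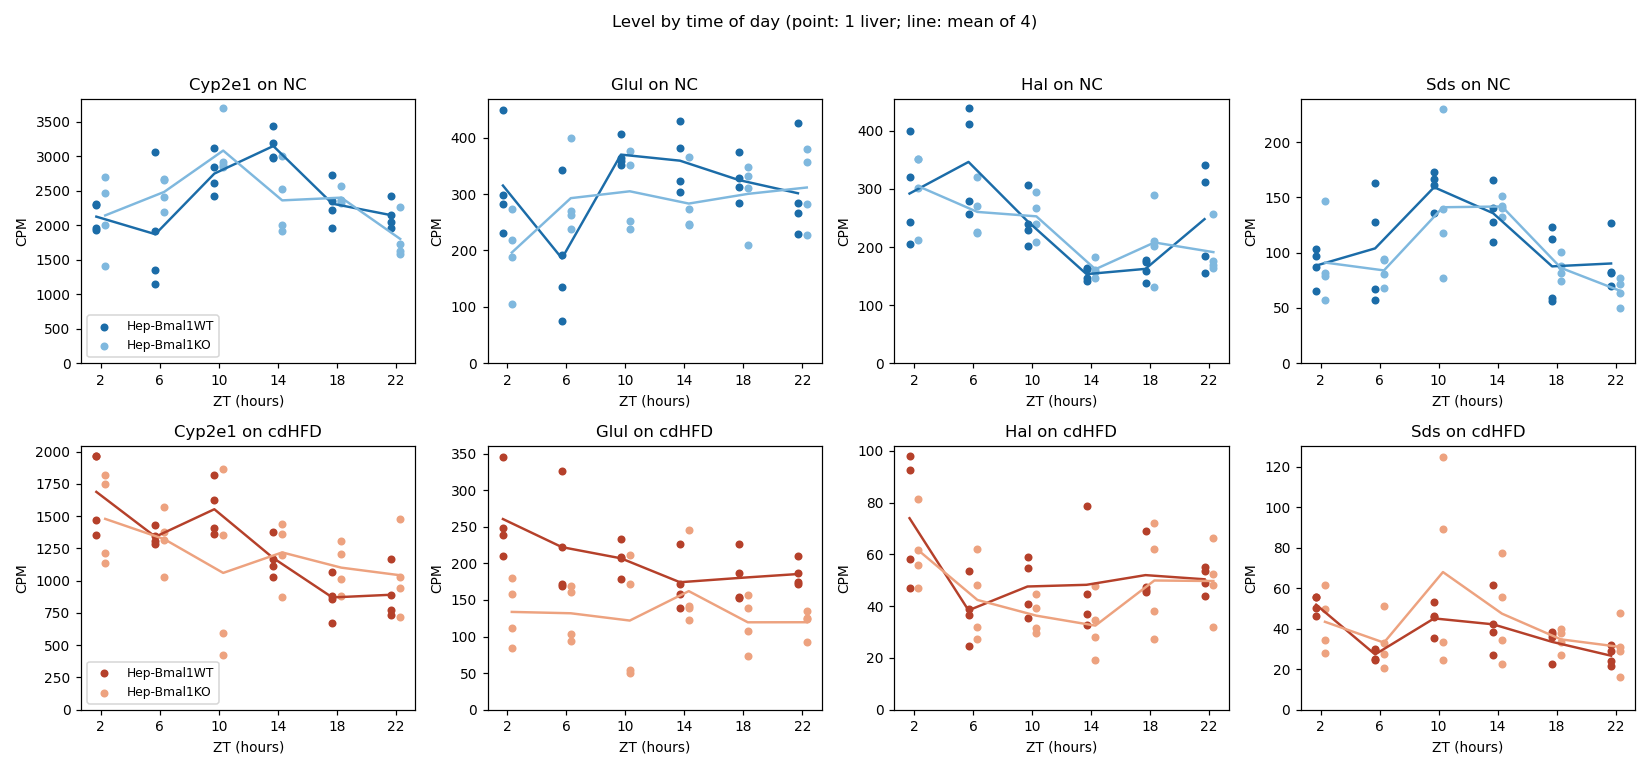
Cyp2e1, Glul, Hal and Sds by ZT on NC (top) and cdHFD (bottom), in CPM on axes that start at 0. Points are livers and lines join the means of 4. In Hep-Bmal1WT Cyp2e1 has its highest mean at ZT14 on NC (3146 CPM) and at ZT2 on cdHFD (1688 CPM).

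Glul was called rhythmic in Hep-Bmal1WT on cdHFD (amplitude 0.26, adjusted p = 0.0454, peak at ZT 3.96 ± 1.33 h), so that 2 of 10 members, beside 14.6% of all genes, were called in that group. Without the libraries nearer the other label its adjusted p was 0.0508, and it also lost its call without ZT10 (0.0797), without replicate 1, 2 or 3 (0.102 to 0.288) and by the cosinor. In Hep-Bmal1KO on NC, Sds (amplitude 0.51, adjusted p = 0.0181, peak at ZT 11.8 ± 0.88 h) and Cyp2e1 (0.30, adjusted p = 0.0414, peak at ZT 10.5 ± 0.97 h) were called, 2 of 10 members beside 4.34% of all genes, and both lost the call without ZT10 (adjusted p = 0.0718 and 0.415). Sds also lost it without replicate 2, 3 or 4 (0.131 to 0.141) and Cyp2e1 without any 1 replicate (0.103 to 0.219). Both lost it in males alone and by the cosinor. In that group Hal had an amplitude of 0.35 and an adjusted p of 0.0514, and Gls2 one of 0.30 and 0.085. Both were called, making 4 members, by DESeq2 (adjusted p = 0.0155 and 0.0381), with sex as a covariate (0.0209 and 0.0431), without ZT6 (0.036 and 0.0254) and without the libraries nearer the other label (0.043 and 0.0411). In Hep-Bmal1KO on cdHFD 0 of 10 members were called by edgeR or by DESeq2, with 1 at an unadjusted p under 0.05, and 3.83% of all genes were called. At an unadjusted p under 0.01, the members rhythmic numbered 3 in Hep-Bmal1WT on NC and 2 on cdHFD, and 4 in Hep-Bmal1KO on NC and 1 on cdHFD, beside 19.4%, 16.1%, 9.01% and 8.46% of all genes. No rhythm was shown to differ between genotypes by edgeR: 0 of 10 were called on NC, where 0.392% of all genes were, and 0 of 10 on cdHFD, where 0.424% were, with 0 at an unadjusted p under 0.05 and 0 by DESeq2 on either diet. Between diets in Hep-Bmal1KO 0 of 10 were called by either tool (1 at an unadjusted p under 0.05), where 0.907% of all genes were.

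Other genes of the zones were described by lists beside the members. Over all genes tested, 27% were called lower and 28.7% higher on cdHFD in Hep-Bmal1WT, and 29.6% lower and 32.4% higher in Hep-Bmal1KO. The 8 hepatocyte markers had medians of -0.88 and -0.98. Of 10 further pericentral genes, 6 were lower and 2 higher on cdHFD in Hep-Bmal1WT and 7 lower and 1 higher in Hep-Bmal1KO, with median log2 fold changes of -0.66 and -0.79. Among them Cyp27a1, a sterol hydroxylase, changed by -1.19 and -1.38, and Rgn by -1.64 and -1.57, whereas Slc13a3, a dicarboxylate transporter, was higher by 1.05 and 1.15. Of 12 further periportal genes, 9 were lower and 2 higher in each genotype, with medians of -1.11 and -1.10. Uroc1, the second enzyme of histidine breakdown, changed by -1.43 and -1.67, Asl, of the urea cycle, by -1.50 and -1.26, and Etnppl, a phospho-lyase, by -2.61 and -2.58, whereas Hsd17b13 on lipid droplets was higher by 0.78 and 0.74.

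Genes that act beside the members in nitrogen metabolism were described in the same way. Of 12 measured genes for histidine, serine, proline and glutamine handling, 11 were lower on cdHFD in each genotype, with medians of -0.80 and -0.87. Over all genes tested, 27% (Hep-Bmal1WT) and 29.6% (Hep-Bmal1KO) were called lower. By median the list fell no further than the 8 hepatocyte markers, at -0.88 and -0.98. The glutamine transporter Slc38a3 changed by -1.18 and -1.13, and Amdhd1, also of the histidine pathway, by -0.96 and -1.42. Immune and stellate markers were higher and hepatocyte markers lower on cdHFD in the same livers, and their part in these changes was not tested.

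Wnt targets and ligands were listed for the signal that maintains the pericentral programme. Of 8 targets, 2 were lower on cdHFD in Hep-Bmal1WT (Notum by -0.54 and Tbx3 by -0.50), and in Hep-Bmal1KO the same 2 were lower (-0.54 and -0.40) and Axin2 (0.55) and Nkd1 (0.36) were higher. These counts stand beside 27% (Hep-Bmal1WT) and 29.6% (Hep-Bmal1KO) of all genes called lower and 32.4% called higher in Hep-Bmal1KO. The medians of the list were -0.12 and -0.22. Of the 3 ligands of the central vein, Rspo3, an R-spondin, was higher on cdHFD, from a median of 7.03 CPM (3.05 to 12.6) to 9.92 CPM (6.24 to 15.3) in Hep-Bmal1WT and from 7.32 CPM (4.404 to 9.904) to 12.2 CPM (7.39 to 17.3) in Hep-Bmal1KO, by 0.47 and 0.72 on the log2 scale. Of 5 endothelial markers, 3 were higher on cdHFD in each genotype (Lyve1 by 1.46 and 1.88, Pecam1 by 0.35 and 0.61 and Stab2 by 0.41 and 0.36) and Kdr was lower (-0.35 and -0.53). Their summed level had medians of 125 CPM (69.8 to 207) on NC and 149.6 CPM (74.9 to 215) on cdHFD in Hep-Bmal1WT, and 124.5 CPM (69.6 to 207) and 132 CPM (84.7 to 212) in Hep-Bmal1KO. Stellate markers were higher on cdHFD as well, as given above. The part of endothelial or stellate cells in the rise of Rspo3 was not tested. Wnt2 (0.31 and 0.16) and Wnt9b (-0.33 and 0.24) did not pass.

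Between genotypes, the further lists moved in both directions. Over all genes tested, 7% were called higher and 5.61% lower in Hep-Bmal1KO on NC, and 4.62% higher and 4.99% lower on cdHFD. Of the 10 other pericentral genes, 3 were higher and 1 lower in Hep-Bmal1KO on NC, and 2 higher and 2 lower on cdHFD. Cyp2a5, a cytochrome P450, had a median of 832 CPM in Hep-Bmal1WT and 200 CPM in Hep-Bmal1KO on NC (-2.06, adjusted p = 2.89e-06), and 610 and 50.5 CPM on cdHFD (-2.94, adjusted p = 3.48e-09). Reads of Cyp2a5 can be shared with its near-identical paralogue Cyp2a4, so its value is uncertain. Of the 12 other periportal genes, 1 was higher and 3 lower on NC and 1 higher and 4 lower on cdHFD, with Asl lower (-0.55 and -0.30) and Ass1 higher (0.35 and 0.25) on each diet. Of the 8 Wnt targets Tbx3 was lower on NC (-0.47, adjusted p = 0.0282), and 0 of 8 were called on cdHFD by edgeR, where 5 had an unadjusted p under 0.05. Counts this small, beside those shares, are not read as a result about the targets.

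Variation of the members from liver to liver is given as a description, with no test. After the mean of each group at each ZT had been taken off, the 10 pairs of pericentral genes had a median Pearson r of 0.47 over 96 livers (0.14 to 0.73, 10 of 10 positive), the 10 periportal pairs 0.22 (-0.36 to 0.62, 7 of 10 positive), and the 25 pairs across zones 0.12 (14 of 25 positive). Within Hep-Bmal1KO on cdHFD the pericentral pairs reached a median r of 0.58 (0.45 to 0.84), and within Hep-Bmal1WT on cdHFD 0.15 (-0.21 to 0.60). These values share the library, its depth and its scaling. Sex was not taken off, although Cyp2f2 and Pigr differed by sex in opposite directions on NC, and its part in these values was not tested.

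Over all 96 livers, diet included, the profiles most like each member among 8990 other genes with a mean of at least 5 CPM were as follows. Cyp2f2 was closest to Cyp2j5 (r = 0.97), Pgrmc1 and Aadac, and Hal to Slc27a5 (r = 0.95), Abat and Aspg. Gls2 was closest to Ivd (r = 0.96), Nipsnap1 and Aldh1l1, Pigr to Serpinc1 (r = 0.94), Cyp2c50 and Asgr2, and Sds to Arg1 (r = 0.85), Slc38a4 and Uroc1. On the pericentral side, Slc1a2 was closest to Gpld1 (r = 0.90), Sord and Car5a, Oat to Hgd (r = 0.88), Dmgdh and Hibadh, and Cyp2e1 to Proc (r = 0.86), Ndrg2 and Cyp2c50. Glul was closest to Slco1b2 (r = 0.80), Car5a and Sord. Rhbg had no gene as close, with Dio1 first at r = 0.61.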

How the data were processed

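RNA from 96 mouse livers was sequenced by the authors as BRB-seq 3′ libraries (MERCURIUS kit, NovaSeq 6000), demultiplexed, and aligned to mm10 with STAR. Their methods name HTSeq and featureCounts for counting, and whether molecular identifiers were collapsed is not given in the sources used here. The deposited values are raw counts per gene. From 22.6% to 39.9% of each library's counts stood on 5 rows that are no genes and were left out.

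Groups came from the labels, and the replicate numbers name mice in accession order and pair none. Counts of genes with at least 100 counts over the 96 libraries were tested with edgeR 4.0.16 in R 4.3.3 (TMM, quasi-likelihood, ZT as a factor, Benjamini-Hochberg over 15548 genes, called at an adjusted p under 0.05), as tested on simulated data. Rhythms used a period of 24 h, with peaks from a cosinor on values transformed by DESeq2 1.42.0. Alternatives covered the tool, scaling, filter, sex, single replicates, discordant libraries and, added after the values had been seen, ZT6 and ZT10. Replicate libraries of a group differed beyond counting noise. A library was taken as nearer the other genotype where it lay past the midpoint between the genotypes' median log2 levels at its ZT and diet, both over 10 clock genes and over the other genes with the smallest p for genotype at the other ZTs.

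The members and gene lists were chosen with earlier results of these data known. All members were named, with up to 4 examples of each further list by smallest p and the 3 genes most correlated with each member. One gene of the nitrogen list is not reported here.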

Additional observations from a re-analysis of the deposited data

Results flagged for a closer look

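Among 240 groups of 4 livers (10 genes in 24 groups), 10 held a value whose gap to the nearest of the others, divided by the range, was over Dixon's 95% critical value for 4 samples. Chance gives about 1 in 20, or 12 groups, so the number is no more than chance gives. Of the pericentral genes, Glul in Hep-Bmal1KO on cdHFD at ZT14 was 245 CPM in 1 male (others 123 to 141), in a library nearer the other genotype label. Oat in Hep-Bmal1KO on NC was 1838 CPM in 1 female at ZT10 (others 776 to 925) and 1793 CPM in 1 male at ZT14 (others 1458 to 1514). Slc1a2 in Hep-Bmal1WT on cdHFD at ZT18 was 44.02 CPM in 1 female (others 27.7 to 29.6). Rhbg in Hep-Bmal1WT on NC at ZT6 was 7.09 CPM in 1 female (others 0.943 to 1.75), the liver that also had the highest Glul and Cyp2e1 of its group. Cyp2e1 in Hep-Bmal1KO on NC at ZT10 was 3695 CPM in 1 female (others 2840 to 2919).

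Of the periportal genes, Cyp2f2 in Hep-Bmal1KO on cdHFD at ZT18 was 142 CPM in 1 male (others 79.8 to 83.6). Hal was 69.1 CPM in 1 female of Hep-Bmal1WT on cdHFD at ZT18 (others 45.4 to 47.4) and 257 CPM in 1 female of Hep-Bmal1KO on NC at ZT22 (others 164 to 176). Sds in Hep-Bmal1WT on cdHFD at ZT18 was 22.3 CPM in 1 female (others 36.01 to 38.3), in a library nearer the other label.

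Effects that differed between groups by a test of the difference were those of genotype between diets for Cyp2f2 (-0.91 on the log2 scale) and of time of day between diets in Hep-Bmal1WT for Cyp2e1 (0.61 on the log2 scale).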

How the results depend on the processing

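No paired analysis was possible because the labels number each mouse by itself and tie no mouse of one group to a mouse of another. Of 2420 values of single members under alternatives, 2299 kept their direction and side of the threshold, 66 lost a call, 54 gained one and 1 reversed: Glul with diet in Hep-Bmal1WT, at 0.28 when scaled to the hepatocyte markers. A further 52 values that were not called changed sign. Leaving out ZT6 or ZT10 was chosen after seeing the data. The causes of the shifts were not tested.

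Members called for genotype on cdHFD and for diet, counted in either direction, stayed within 1.5 times of the count given. The directions did not all hold for diet. Scaled to the hepatocyte markers, 2 pericentral genes were called higher and 1 lower in Hep-Bmal1WT, and 1 higher and 2 lower in Hep-Bmal1KO. Leaving out 1 replicate gave 2 to 3 for genotype on NC, 2 to 5 for sex on NC, 2 to 4 for sex on cdHFD, 1 to 2 for rhythm in Hep-Bmal1WT on NC and also on cdHFD, 0 to 1 for rhythm in Hep-Bmal1KO on NC and 0 to 1 for rhythm by diet in Hep-Bmal1WT. Genotype by diet rose from 1 to 3 with sex as a covariate and 2 in males alone. Sex on NC went from 4 to 2 when scaled to hepatocyte markers and 7 with a filter of at least 1 count, and sex on cdHFD from 3 to 6 with that filter and 5 without the libraries nearer the other label. Rhythm in Hep-Bmal1WT on NC went from 3 to 1 without ZT10, in females alone and by the cosinor. Rhythm in Hep-Bmal1WT on cdHFD went from 2 to 4 when scaled to hepatocyte markers and 5 without ZT6, and to 1 without ZT10, in males alone, in females alone and by the cosinor.

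Rhythm in Hep-Bmal1KO on NC went from 2 to 4 with DESeq2, without the libraries nearer the other label, without ZT6, with sex as a covariate and at an unadjusted p under 0.01. It went to 1 when scaled to total counts or hepatocyte markers and in females alone, and to 0 without ZT10, in males alone and by the cosinor. Rhythm in Hep-Bmal1KO on cdHFD went from 0 to 1 with at least 1 count, with sex as a covariate and at an unadjusted p under 0.01, and 2 in males alone. Rhythm by diet in Hep-Bmal1WT went from 1 to 2 with DESeq2, total counts, at least 1 count, sex as a covariate, males alone and ZT as a factor, and 0 in females alone. At 6 to 127 counts a library, Rhbg is limited by depth.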
